A study of Mus musculus with 12 samples.

Results

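Undifferentiated mouse embryonic stem cells (ESCs) of 2 Smarcd1 knockdown lines, KD1 and KD2, were compared with each other. The members are the 2 ESC arrays titled KD2 and the 2 ESC arrays titled KD1, 4 of the 12 arrays of the series, and they were picked by these titles. The comparison was set up with earlier results of these data known. All cells were R1 ESCs, a mouse line of male origin kept on mitomycin-treated embryonic fibroblasts in serum medium with leukemia inhibitory factor. The other arrays carry 2 scrambled-control ESC samples, 2 scrambled samples differentiated for 4 days with 1 µM retinoic acid and 4 KD1 samples treated in that way. Retinoic acid samples of the KD2 line were not analysed here. The labels speak of knockdown and control clones and of an infection for the control, and they name neither the targeting sequences nor how many clones each line stands for. Total RNA was hybridised to Affymetrix mouse gene arrays, and all values are the deposited log2 signals, which ran from 1.74 to 13.57. Arrays of a group are called biological replicates with no word on separate cultures, so p-values reflect only how far these arrays scatter, and part of that scatter may be technical. Differences between the lines are differences between 2 cell populations, and what the knockdown, the clone or the culture contributed to them cannot be told apart.

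The product of Smarcd1, BAF60a, belongs to the SWI/SNF (BAF) complexes, which use ATP to slide or evict nucleosomes and so open or close regulatory DNA. Mouse ESCs hold a mixture of states, and a minority can switch on genes of extraembryonic endoderm under GATA factors. Visceral endoderm, which takes up nutrients for the early embryo, uses the endocytic receptors cubilin and megalin with their adaptor DAB2. Parietal endoderm lays down a thick basement membrane of laminin and type IV collagen. Comparing a pair of knockdown lines of the same gene asks how their expression differs. By itself it cannot assign a difference to the line or to the target.

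The targeted gene was examined first. Smarcd1 read 8.67 and 8.68 on the scrambled ESC arrays, 7.75 and 7.78 on the KD1 arrays, and 8.56 and 7.16 on the KD2 arrays. KD2 replicate 2 thus held the lowest level of the 6 arrays, while the array labelled KD2 replicate 1 stood at the scrambled level and goes against its label. KD2 minus KD1 was 0.10 ± 0.33 (SE, n = 2 arrays per line, limma adjusted p = 0.939), and it was -0.61 without replicate 1 (adjusted p = 0.00997). Leaving out a KD2 array leaves that line with 1 array, whose spread is then taken from the other groups, so p-values and counts from such fits say nothing about scatter within KD2. Every direction given below for KD2 rests partly on that array. The KD2 arrays also differed from each other more than those of the other lines. The median absolute difference between the arrays of a pair was 0.47 in KD2, 0.14 in KD1 and 0.16 in scrambled ESCs, and 2240 genes differed by over 1 log2 unit between the KD2 arrays against 29 in KD1. Each SE and adjusted p from the main fit pools the spread of all 5 groups, which tends to understate the scatter within KD2. Pearson correlations across genes, which are not independent replicates, were 0.918 for the KD2 pair and 0.991 for the KD1 pair. For this reason each member is described by its value on every array.

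Among 12988 genes tested, 351 were called different between the lines, at a Benjamini-Hochberg adjusted p under 0.05 from limma over all 12 arrays. That is 2.7% of the genes tested. In KD2, 66 were higher (0.508%) and 285 were lower (2.19%), a split of 48 and 108 after cyclic loess. The gene lists used below were written with earlier results of these data known, so their counts and medians are descriptions. Arrays of the lines did not overlap for 34.9% of the genes tested, and they stood apart by at least 1 log2 unit for 62 genes (0.477%), of which 12 were higher (0.0924%) and 50 lower (0.385%) in KD2. Of the 351 genes, 343 were also called in the same direction with either KD2 array left out. Over all tested genes, these 2 fits with a single KD2 array called 462 genes in the same direction and 629 in opposite directions. The count itself moved with single arrays: it was 19 and 4 without KD1 replicates 1 and 2, 4550 and 2093 without KD2 replicates 1 and 2, 260 without either scrambled ESC array (35 higher), 205 when a retinoic acid scrambled array was left out, and 196, 201, 192 and 190 when KD1 replicates 1 to 4 of that treatment were. The 4 genes still called without KD1 replicate 2 were Srgn, Dab2, Myof and H2bc18, so each other call named below is lost without that array. A limma fit to the 4 arrays of the lines alone called 0 genes, with 782 under an unadjusted p of 0.05, and a fit with array weights also called 0, with 458. In the plot of each KD2 array against the KD1 pair, the called genes lie where both KD2 arrays differ in the same direction.

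**Figure D1:**
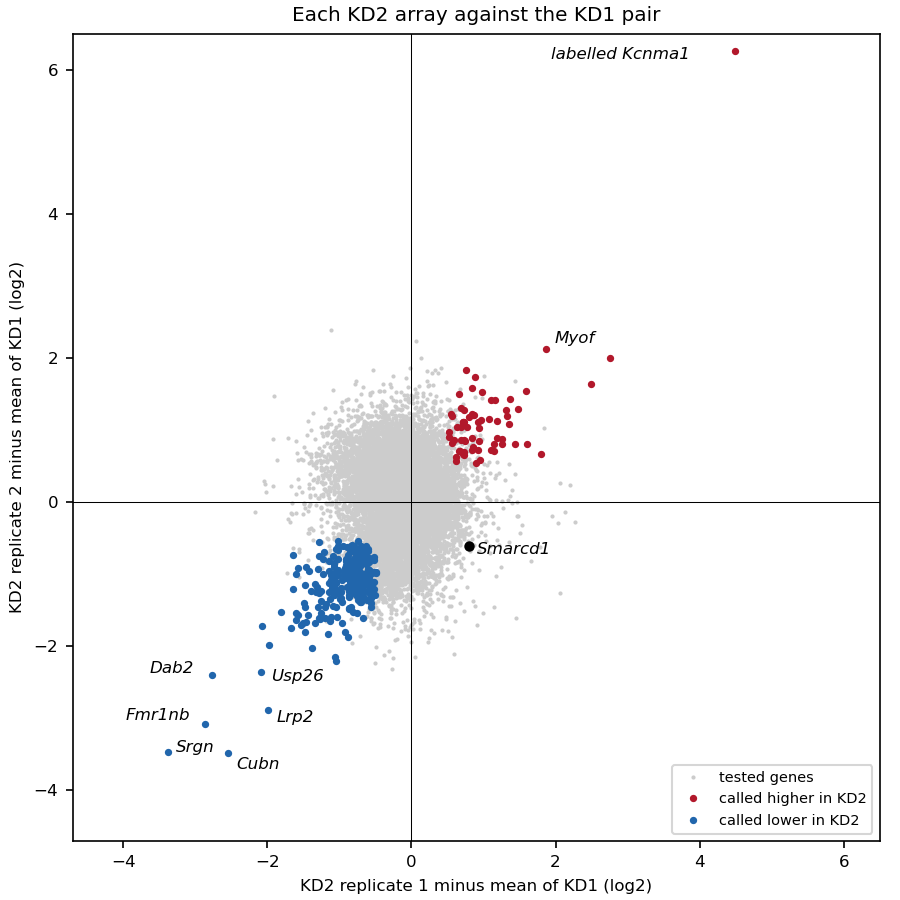
Each point is a tested gene, placed by its log2 difference from the KD1 mean on KD2 replicate 1 (x axis) and on KD2 replicate 2 (y axis). The 66 genes called higher (red) and 285 called lower (blue) lie in the corners where both arrays agree in sign, whereas Smarcd1 (black) lies to the right of 0 on replicate 1 and below 0 on replicate 2.

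Cubn, Dab2, Lrp2 and Lrpap1 of the cubilin uptake system were lower in KD2, as was Srgn. Srgn, the core protein of the proteoglycan serglycin and a gene that parietal endoderm expresses, read 8.24 and 7.70 on the KD1 arrays and 4.59 and 4.51 on the KD2 arrays. The scrambled arrays, at 5.08 and 5.33, lay above both KD2 arrays and far below both KD1 arrays. Srgn was 10.7-fold lower in KD2, with a log2 difference of -3.42 ± 0.29 (SE, limma adjusted p = 0.000775). Cubn, which encodes the endocytic receptor cubilin, read 7.10 and 7.03 in KD1 and 4.53 and 3.59 in KD2. Its scrambled values of 3.90 and 4.40 fell between the KD2 values, and the lines differed by -3.01 ± 0.54 (adjusted p = 0.0193), 8.04-fold. Dab2, the clathrin adaptor that binds the tails of cubilin's partner megalin, read 7.57 and 7.30 in KD1, 4.67 and 5.04 in KD2, and 5.13 and 5.65 in scrambled cells. Dab2 thus separated KD1 from the other 4 ESC arrays, with KD2 5.98-fold below KD1 (-2.58 ± 0.23, adjusted p = 0.000775). A second Dab2 probe set read between 2.42 and 2.65 on all 6 ESC arrays and showed no such gap.

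Lrp2, which encodes megalin itself, followed another pattern. It read 7.01 and 8.69 in scrambled cells, 7.58 and 7.47 in KD1, and 5.54 and 4.64 in KD2. Here KD2 was the line that stood apart from scrambled cells, by -2.76 (adjusted p = 0.00299), while KD1 differed from them by -0.33 (adjusted p = 0.884). Lrpap1, the chaperone that escorts megalin through the endoplasmic reticulum, read 9.64 and 9.82 in KD1 and 8.99 and 8.67 in KD2, a difference of -0.91 ± 0.17 (adjusted p = 0.0194, and 0.0924 after cyclic loess). Of the 7 tested genes of the visceral endoderm uptake list, 4 were lower and 0 higher in KD2. Over all tested genes 2.19% were lower and 0.508% higher. The list median was -0.91 beside -0.01 over all tested genes. The list was written with earlier results of these data known and includes Cubn and Dab2, which were named from the start. Its count and median are therefore descriptions. Amn, the membrane anchor of cubilin, differed by -0.70, the folate receptor gene Folr1 by -0.31 and the zinc transporter gene Slc39a4 by -0.41, and these 3 did not pass the test. The list gave 6 lower without KD2 replicate 1 and 4 without replicate 2, and 3 lower after cyclic loess. In a bulk sample, fewer cells of a type and less RNA per cell cannot be told apart.

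**Figure D2:**
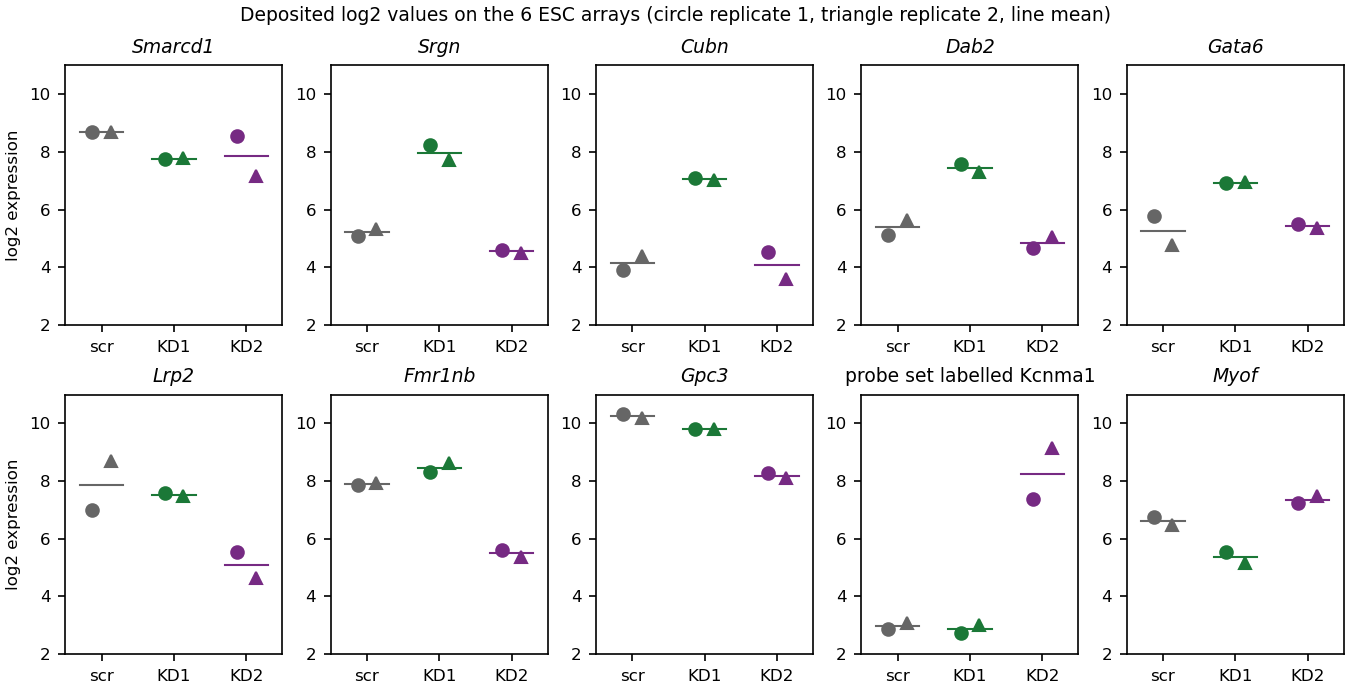
Deposited log2 values (y axis, log2 scale) of 10 probe sets on the 6 ESC arrays, grouped as scrambled (scr), KD1 and KD2, with circles for replicate 1, triangles for replicate 2 and a line at each group mean. Srgn, Cubn, Dab2 and Gata6 are high in KD1 alone, Lrp2, Fmr1nb and Gpc3 are low in KD2 alone, and the Smarcd1 values of the KD2 arrays lie 1.41 log2 units apart.

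Of 9 tested transcription factors that direct endoderm, Gata6 was lower in KD2. Gata6, the factor that starts the primitive endoderm programme, read 6.91 and 6.95 in KD1, 5.49 and 5.36 in KD2, and 5.77 and 4.76 in scrambled cells. KD2 was below KD1 by 1.42 log2 units at the closest arrays, with a difference of -1.51 ± 0.27 (adjusted p = 0.0191). The other 8 tested factors were not called. Among them Foxq1 differed by -1.14 and Gata4 by -0.69, whereas Sox7 (0.02), Sox17 (0.00) and Hnf4a (0.10) gave values near 0. Of 15 measured genes for secreted carrier proteins of visceral endoderm, such as apolipoproteins and transferrin, 6 passed the filter on low signal and 0 were called. Trf (transferrin) differed by -1.05 ± 0.25 (adjusted p = 0.0511) and Apoe by -0.72 (adjusted p = 0.0819).

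A laminin chain, a type IV collagen chain and 3 genes of collagen assembly were lower in KD2, while other basement membrane genes were not called. Of 13 tested genes for the parietal endoderm matrix and its assembly, 5 were lower and 0 higher, beside 2.19% lower over all tested genes. The list median was -0.74. Of the 13 differences 12 were below 0, beside 6681 of 12988 over all tested genes. P4ha2, a subunit of the prolyl hydroxylase that stabilises collagen, read 8.33 and 7.89 in KD1 and 6.51 and 6.48 in KD2, with scrambled cells at 6.90 and 6.88. The lines differed by -1.61 ± 0.33 (adjusted p = 0.0294). Its paralogue P4ha1 differed by -1.08 ± 0.26 (adjusted p = 0.0488, and 0.0605 without KD2 replicate 2). Serpinh1, the collagen chaperone, differed by -1.03 ± 0.20 (adjusted p = 0.0236). The laminin chain gene Lamb1 read 9.93 and 9.99 in KD1, 8.92 and 8.37 in KD2 and 9.59 and 9.95 in scrambled cells (-1.32 ± 0.21, adjusted p = 0.0136). Col4a2, a type IV collagen chain, read 7.10 and 6.96 in KD1 against 6.29 and 5.92 in KD2 and 6.20 and 6.17 in scrambled cells (-0.93 ± 0.17, adjusted p = 0.0194). So P4ha2 and Col4a2 were high in KD1, and Lamb1 was low in KD2. The laminin chain gene Lamc1 differed by 0.13, the nidogen genes Nid1 and Nid2 by -0.12 and -0.04 and the perlecan gene Hspg2 by -0.22. On these 4 the KD2 arrays disagreed: replicate 1 lay above both KD1 arrays and replicate 2 below both, as for Lamc1 at 10.67 and 9.46 against 9.82 and 10.05. The list had 11 lower genes without KD2 replicate 1 and 5 without replicate 2, but 0 after cyclic loess, where its median was -0.68. Fibroblasts of the feeder layer also express several of these genes. Of 28 tested fibroblast and smooth muscle markers 0 were called, with a median of -0.05. Their mean level was 7.0 and 6.40 on the KD1 arrays and 6.49 and 6.83 on the KD2 arrays, against 7.26 and 7.38 in scrambled cells, and their part in the matrix result was not tested.

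Surface and secreted genes of parietal endoderm other than Srgn were not called. Of the 12 tested genes, Pdgfra (-1.13), the follistatin gene Fst (-0.86) and Pth1r (-0.52) had the lowest values after Srgn, and Plau (0.48) the highest. The list median was -0.37. After retinoic acid the KD1 arrays held Srgn between 10.46 and 11.12 and the scrambled arrays held it at 6.95 and 6.10. Cubn then ran from 7.60 to 9.47 in KD1 against 7.0 and 6.13 in scrambled cells, and Dab2 from 10.87 to 11.44 against 9.39 and 9.43. In each of the 3 genes all 4 arrays labelled as treated KD1 lay above both treated scrambled arrays. Cubn was uneven among them, at 8.77, 9.47, 7.80 and 7.60 on replicates 1 to 4. Replicates 3 and 4 also shared features with the KD2 ESC arrays: the probe set labelled Kcnma1 read 3.05, 2.84, 6.46 and 5.94 on the 4 arrays, and Fmr1nb read 7.99, 7.88, 6.07 and 5.91. Whether those 2 arrays hold KD1 cells was not tested. All 4 were fitted as a single group, so this split adds to the SE of such genes.

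**Figure D3:**
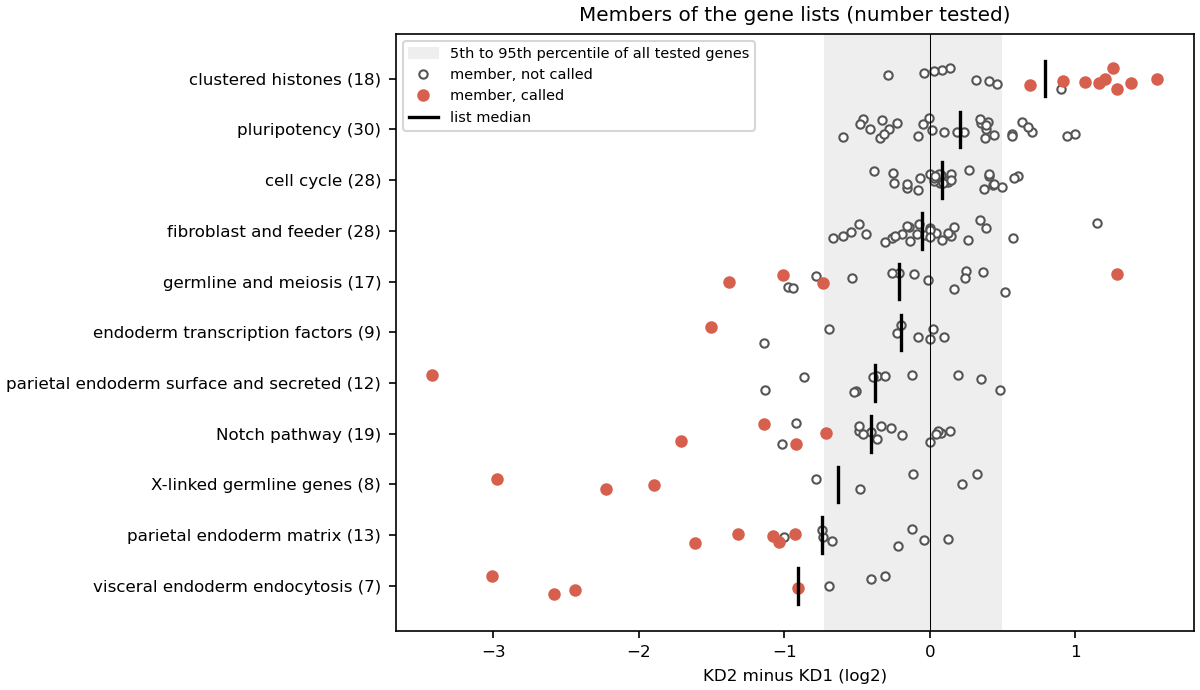
KD2 minus KD1 (x axis, log2) for the tested members of 11 gene lists, with the number tested in brackets. Filled points are called members, open points are not called, black bars are list medians and the grey band spans the 5th to 95th percentile of all tested genes. Called members of the uptake, matrix, X-linked and Notch lists lie to the left and those of the histone list to the right.

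Where the lines differ, the scrambled arrays show which line stands apart, although both lines share those arrays as their reference. Against scrambled cells 301 genes were called in KD1 (2.32% of those tested) and 1302 in KD2 (10%). Both counts rest on the same pooled spread, so the KD2 count is open to the wider scatter of its arrays. For the 285 genes lower in KD2, the scrambled mean lay between the lines and nearer to KD1 for 126, beyond KD1 for 123, nearer to KD2 for 28 and beyond KD2 for 8. For the 66 genes higher in KD2 these numbers were 35, 21, 6 and 4. KD2 was therefore the line farther from scrambled cells for most called genes, in contrast to Srgn, Cubn, Dab2 and Gata6. For 104 of the lower and 20 of the higher genes both scrambled arrays lay between the lines with no overlap. The share over all tested genes was not counted, so these 2 counts are descriptions. Some genes were low in both lines and lowest in KD2. Usp26 read 7.39 and 7.83 in scrambled cells, 5.11 and 6.05 in KD1, and 3.50 and 3.22 in KD2. The fatty acid transporter gene Slc27a2 read 9.88 and 11.05, then 8.46 and 9.10, then 7.40 and 6.75 in the same order of groups. Its difference between the lines was -1.71 ± 0.35 (limma adjusted p = 0.0295, and 0.0576 after cyclic loess).

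X-linked genes of the testis were among the largest losses. Fmr1nb, a cancer-testis antigen gene, read 7.85 and 7.94 in scrambled cells, 8.30 and 8.63 in KD1, and 5.60 and 5.38 in KD2. The closest KD1 and KD2 arrays were 2.70 log2 units apart, and the difference was -2.98 ± 0.59 (limma adjusted p = 0.0257). Usp26, a deubiquitinase gene expressed in testis, differed by -2.22 ± 0.28 (adjusted p = 0.00404). Pnma5 read 5.56 and 5.20 in KD1 and 3.31 and 3.66 in KD2 (-1.90 ± 0.28, adjusted p = 0.00937). Of 8 tested genes of the X-linked germline list, 3 were lower and 0 higher, with a median of -0.63, while Rhox6 (0.33) and Tex11 (0.22) had positive values. The 3 are Fmr1nb, Usp26 and Pnma5. Relative to KD1, the list medians were -1.15 on KD2 replicate 1 and -0.23 on replicate 2. The list was written with earlier results of these data known, so its count and median are descriptions. Over the whole X chromosome 21 of 418 genes were lower and 1, Mcf2, was higher, beside 2.19% lower and 0.508% higher over all tested genes. The X median was -0.11, but the KD2 arrays disagreed, at -0.29 on replicate 1 and 0.01 on replicate 2 relative to KD1. Over all tested genes these medians were -0.12 and 0.08. Mcf2 read 5.56 and 5.86 in KD1 but 6.47 and 7.54 in KD2 (1.30 ± 0.28, adjusted p = 0.0366, and 0.0555 after cyclic loess).

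In a wider list of germline and meiosis genes, 3 were lower and 1 higher of 17 tested, beside 2.19% lower and 0.508% higher over all tested genes. The KD2 arrays disagreed, with list medians of -0.43 on replicate 1 and 0.14 on replicate 2 relative to KD1. Hormad1, which encodes a protein of meiotic chromosome axes, read 6.90 and 6.80 in KD1 and 5.54 and 5.40 in KD2 (-1.38 ± 0.20, adjusted p = 0.00721). Dazl, an RNA-binding protein of germ cells, differed by -1.01 ± 0.24 (adjusted p = 0.0472, and 0.0597 after cyclic loess) and the piRNA helicase gene Mov10l1 by -0.74 ± 0.14 (adjusted p = 0.0235). Rnf17, a Tudor protein of germ cells, went the other way. It read 6.92 and 6.98 in KD1 and 8.10 and 8.37 in KD2, with scrambled cells at 6.81 and 6.91 (1.29 ± 0.30, adjusted p = 0.0465, with 0.0501 without KD2 replicate 2 and 0.0641 after cyclic loess). The list gave 2 lower and 0 higher after cyclic loess, 3 lower and 4 higher without KD2 replicate 1, and 6 lower and 0 higher without replicate 2.

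Further genes low in KD2 encode membrane and signalling proteins. Slc43a1, an amino acid transporter gene, read 7.61 and 7.87 in KD1 and 5.77 and 5.76 in KD2, with scrambled cells at 7.10 and 8.46 (-1.98 ± 0.33, limma adjusted p = 0.0142). No other of the 23 tested genes of amino acid stress and transport was called. Gpc3, a heparan sulfate proteoglycan of the cell surface, read 10.33 and 10.20 in scrambled cells, 9.81 and 9.79 in KD1, and 8.27 and 8.10 in KD2. Both KD2 arrays were at least 1.53 log2 units below both KD1 arrays, and the difference was -1.62 ± 0.18 (adjusted p = 0.00288). Cldn6, a tight junction gene of early epithelia, read 11.06 and 11.45 in scrambled cells, 10.56 and 10.61 in KD1, and 8.99 and 9.05 in KD2 (-1.57 ± 0.28, adjusted p = 0.0191). It was the single called gene among 14 tested genes of the primed epiblast list. Nxt2, an mRNA export factor gene, had KD1 values of 8.97 and 8.94, above the scrambled values of 7.90 and 7.87 and the KD2 values of 7.15 and 7.43 (-1.67 ± 0.19, adjusted p = 0.00366). Rhd (-1.64 ± 0.20) and Cnpy1 (-1.62 ± 0.29) had both scrambled arrays between the lines.

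In the Notch pathway, 2 ligand genes and 2 genes of fringe enzymes, which act in the Golgi, were lower in KD2. The ligand gene Dll1 read 7.45 and 8.42 in scrambled cells, 6.85 and 6.80 in KD1, and 5.15 and 5.08 in KD2 (-1.71 ± 0.33, limma adjusted p = 0.0225). A second ligand gene, Jag1, differed by -1.14 ± 0.27 (adjusted p = 0.0466, and 0.126 after cyclic loess). The fringe glycosyltransferase genes Mfng (-0.92 ± 0.19, adjusted p = 0.0295) and Lfng (-0.72 ± 0.16, adjusted p = 0.0421, and 0.0679 after cyclic loess), which tune how Notch answers its ligands, were lower too. The receptor genes Notch1 to Notch4 differed by -0.49, -0.49, -0.40 and -0.36 and were not called, and neither were the ligand genes Jag2 (-1.02, adjusted p = 0.0635) and Dll3 (-0.92, adjusted p = 0.442). Target genes were not called either: Nrarp differed by -0.34, Hey2 by -0.27, Hes5 by 0.00, Heyl by 0.06, Hes1 by 0.08 and Hey1 by 0.14. For Hes1 the KD2 arrays disagreed, at 7.83 and 9.15 against 8.55 and 8.26 in KD1. Ligands, receptors and targets were not tested against each other. In all, 4 of 19 tested genes were lower and 0 higher, with a median of -0.40, beside 2.19% lower over all tested genes. The count was 10 without KD2 replicate 1, 5 without replicate 2 and 2 after cyclic loess.

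The Nodal and FGF lists held 2 calls each, beside 2.7% of all tested genes. In the Nodal and activin list of 18 tested genes, Lefty1, a secreted Nodal antagonist, read 10.21 and 11.02 in scrambled cells, 8.73 and 9.30 in KD1, and 7.75 and 7.39 in KD2 (-1.44 ± 0.28, limma adjusted p = 0.0224, and 0.0504 after cyclic loess). Inhbb, which encodes an activin subunit, was highest in KD2, reading 5.04 and 5.38, then 5.92 and 5.94, then 7.12 and 6.81 (1.04 ± 0.19, adjusted p = 0.0192). In the FGF list of 23 tested genes, the receptor gene Fgfr2 (-1.57 ± 0.30, adjusted p = 0.0236) and the co-receptor gene Klb (-1.04 ± 0.23, adjusted p = 0.0413, and 0.0634 after cyclic loess) were lower. Fgfr2 was lower than scrambled cells in KD2, whereas Klb was high in KD1, which read 5.22 and 4.89 against 3.96 and 3.57 in scrambled cells and 4.19 and 3.82 in KD2. Of 17 BMP genes, 18 Wnt genes, 19 p53 targets, 20 cholesterol synthesis genes and 28 cell cycle genes, 0 were called. The cell cycle list, with a median of 0.08, is one on which the KD2 arrays disagreed, at -0.32 for replicate 1 and 0.53 for replicate 2 relative to KD1. Cholesterol synthesis genes had a median of -0.32, with the lowest value for Dhcr7 (-0.87, adjusted p = 0.0698).

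Replication-dependent histone genes were higher in KD2. These genes lie in clusters and are transcribed in S phase into messages that lack a poly(A) tail. Of 18 tested members, 9 were higher and 0 lower, with a median of 0.79, beside 0.508% higher over all tested genes. H2bc18 read 6.27 and 6.05 in scrambled cells, 6.10 and 6.02 in KD1, and 7.65 and 7.60 in KD2, with no overlap between the lines. It differed by 1.57 ± 0.15 (SE, limma adjusted p = 0.000883), 2.96-fold. H2bc3 read 6.44 and 6.28 in KD1 and 7.84 and 7.65 in KD2 (1.39 ± 0.18, adjusted p = 0.00404). H2bc14 read 8.33 and 7.97 in KD1 and 9.46 and 9.42 in KD2 (1.29 ± 0.20, adjusted p = 0.0124). H4c6 rose by 1.26, H2ac4 by 1.20, H4c4 by 1.16, H1f1 by 1.07, H1f5 by 0.92 and H2bc9 by 0.69. Over all 18 tested members the median of KD1 minus scrambled was -0.06, against 0.77 for KD2. Among the called members KD1 minus scrambled ran from -0.34 for H4c4 to 0.05 for H2bc9. Both KD2 arrays showed the shift, with list medians of 0.90 and 0.73 relative to KD1. The linker histone gene H1f2 was an exception, at 9.25 and 6.93 on the KD2 arrays against 8.40 and 8.35 in KD1. The list gave 13 higher and 0 lower without KD2 replicate 2, 10 higher and 1 lower without replicate 1, and 5 higher after cyclic loess. Copies of a histone gene can be nearly identical, so a probe set may read more than 1 of them. Cell cycle genes, whose part in this result was not tested, had the medians given above. Some other RNAs that lack a poly(A) tail were also higher on both KD2 arrays. The RNase P RNA gene Rpph1, on chromosome 14, read 9.53 and 8.62 in KD1 and 11.84 and 11.07 in KD2 (2.38 ± 0.34, adjusted p = 0.00721), and the Y RNA gene Rny3 read 7.32 and 7.17, then 9.74 and 8.89 (2.07 ± 0.24, adjusted p = 0.00366). The small RNA genes Rmrp (0.61, adjusted p = 0.626) and Rn7sk (0.38, adjusted p = 0.211) were not called. These genes were chosen after their values were seen, and the part of RNA quality or handling in the histone result was not tested.

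The promoters of these histone genes are shown because H2B genes share a known element, the octamer, which POU-domain factors such as OCT1 and OCT4 bind. A search for ATTTGCA, the first letters of the octamer, on both strands of the 250 bases before the start found it in 4 of the 9 promoters of called list members and in 1 of the 8 matched promoters of members not called. Over all 32851 promoters of the RefSeq table the share was 3.56%, and over promoters of the tested genes it was 2.46%. By histone type, 5 of 7 matched H2B promoters held it, among them H2bc8, which was not called (0.32), and 2 of 16 promoters of the other types. The H2bc9 promoter did not hold these letters. A match is a description of the sequence and not evidence of binding. The sequences are from RefSeq, build GRCm38.p6, written 5′ to 3′ on the gene's strand with the match in capitals. They lie at chr3:96269450-96269699 (+ strand, H2bc18), chr13:23746484-23746733 (+ strand, H2bc3), chr13:21721794-21722043 (+ strand, H2bc14) and chr13:23750838-23751087 (+ strand, H2ac4). The match starts 48, 90 and 25 bases before the start in the 3 H2B genes, and in H2ac4 it lies on the other strand.
H2bc18: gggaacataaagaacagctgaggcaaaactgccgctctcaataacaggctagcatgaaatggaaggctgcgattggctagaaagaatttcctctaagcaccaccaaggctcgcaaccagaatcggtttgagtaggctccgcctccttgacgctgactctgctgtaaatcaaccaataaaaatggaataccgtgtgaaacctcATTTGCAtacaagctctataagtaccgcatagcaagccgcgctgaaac
H2bc3: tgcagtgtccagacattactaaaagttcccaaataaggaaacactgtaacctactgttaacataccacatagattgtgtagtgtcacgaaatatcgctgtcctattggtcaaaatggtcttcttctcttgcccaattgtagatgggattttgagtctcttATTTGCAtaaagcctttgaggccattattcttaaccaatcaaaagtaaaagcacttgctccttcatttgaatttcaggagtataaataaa
H2bc14: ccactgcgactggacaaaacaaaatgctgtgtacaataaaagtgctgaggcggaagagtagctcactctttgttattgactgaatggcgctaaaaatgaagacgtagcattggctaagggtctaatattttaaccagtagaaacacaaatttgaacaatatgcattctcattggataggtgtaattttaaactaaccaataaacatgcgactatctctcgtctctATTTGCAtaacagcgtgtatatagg
H2ac4: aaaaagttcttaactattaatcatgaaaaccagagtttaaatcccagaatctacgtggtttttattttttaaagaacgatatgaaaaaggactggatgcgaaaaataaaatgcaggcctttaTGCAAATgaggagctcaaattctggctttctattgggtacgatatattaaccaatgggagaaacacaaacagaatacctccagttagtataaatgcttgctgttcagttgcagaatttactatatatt

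In the 5 promoters of the called uptake genes and the 5 of the called matrix genes, the GATA motif AGATAA was found 0 times on either strand, against 9.99% of all promoters of that length and 5.75% of those of the tested genes. At such shares 10 promoters are too few to read a difference from. This says only that these letters are not in those windows.

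Chromosome 14 genes were shifted upward in KD2 as a whole. Over its 451 tested genes the median difference was 0.32, with 78.9% of values above 0, while the medians of the other autosomes ran from -0.07 to 0.09. Of these genes 18 were called higher and 0 lower, beside 0.508% higher over all tested genes. The 18 include the probe set labelled Kcnma1, which may not read a chromosome 14 gene, as described with that probe set. The shift was present on both KD2 arrays, at 0.21 and 0.43 relative to KD1, and KD1 differed from scrambled cells by a median of 0.00. It was also found in each of 5 consecutive blocks of about equal gene number along the chromosome, with block medians from 0.14 to 0.28 on replicate 1 and from 0.27 to 0.56 on replicate 2. Called members included Nynrin, at 6.28 and 6.31 in KD1 and 7.67 and 7.72 in KD2 (1.40 ± 0.27, adjusted p = 0.0222), whose other probe sets gave 1.47 and 1.61. Fermt2, an integrin activator gene, rose by 1.25 ± 0.27 (adjusted p = 0.0354), the retinoblastoma gene Rb1 by 0.97, the ETS factor gene Elf1 by 1.00 and the calcium-regulated factor gene Nfatc4 by 0.99. Rb1 read 6.47 and 6.30 in KD1 and 7.53 and 7.19 in KD2. Copy number was not measured. On chromosome 13, 12 of 461 tested genes were higher and 10 lower, beside 0.508% and 2.19% over all tested genes. Its median difference was -0.03, and 8 of the 9 called histone list members lie there.

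**Figure D4:**
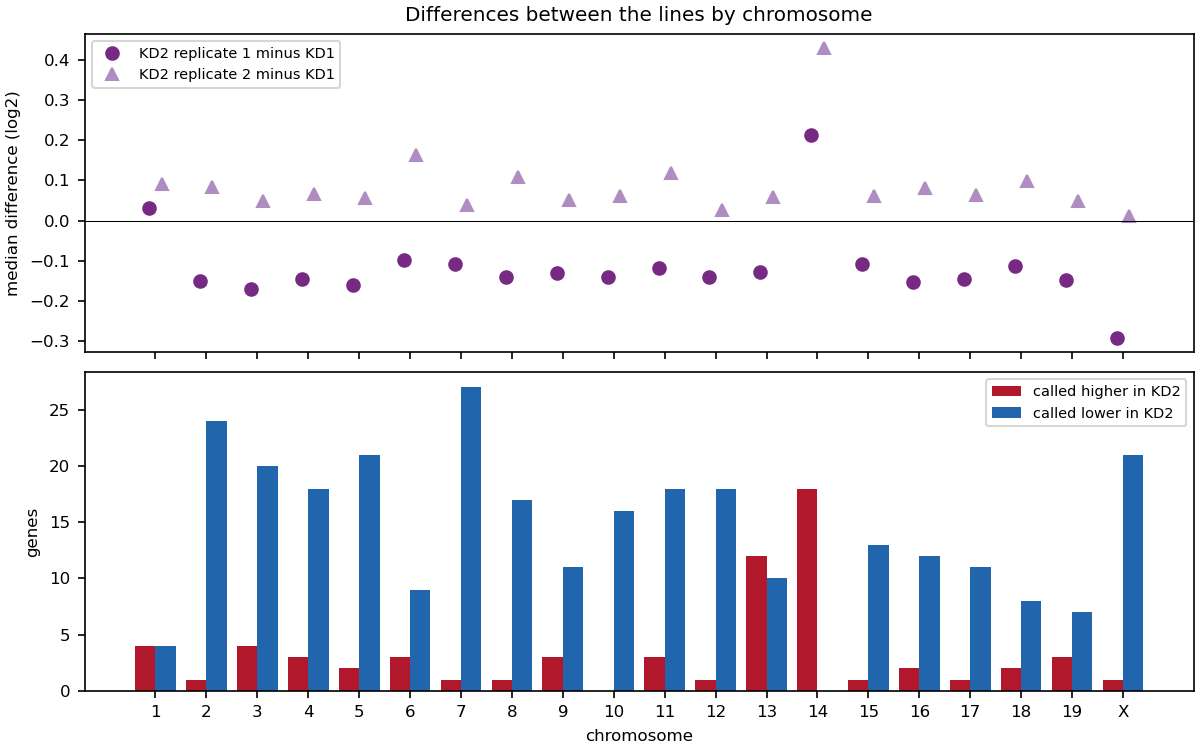
The upper panel gives the median log2 difference from KD1 (y axis) of the tested genes of each chromosome (x axis) on KD2 replicate 1 (circles) and replicate 2 (triangles). The lower panel counts genes called higher (red) and lower (blue). Chromosome 14 has both medians above 0.2 and 18 genes higher with 0 lower, and on most other chromosomes replicate 1 lies below 0 and replicate 2 above it.

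The probe set with the largest difference of all carries the label Kcnma1, the gene of a calcium-activated potassium channel that RefSeq places on chromosome 14. It read 2.88 and 3.09 in scrambled cells, 2.75 and 3.01 in KD1, and 7.37 and 9.14 in KD2, a difference of 5.37 ± 1.04 (limma adjusted p = 0.0236). The other Kcnma1 probe set, which lists the RefSeq messages of the gene, read between 3.20 and 3.59 on all 6 ESC arrays and differed by 0.10. For the first of them no RefSeq message is listed, and all 10 of its nearest neighbours in the order of probe set numbers belong to genes of chromosome 8, whereas those of the second belong to chromosome 14. Which transcript the first probe set reads was not tested, and its signal is not taken here as the level of the channel gene. Of the 351 called genes 4 had such a mismatch of neighbours, Kcnma1, Glul, Plp2 and Tmed10. In the potassium channel list the one other call among 14 tested genes was Kcnn2, a small-conductance channel gene, at -1.18 ± 0.27 (adjusted p = 0.0455, and 0.0576 after cyclic loess).

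With small RNAs and predicted genes left aside, the next largest increase was in Myof, which encodes the membrane repair protein myoferlin. Myof read 6.74 and 6.49 in scrambled cells, 5.55 and 5.17 in KD1, and 7.23 and 7.49 in KD2, so the lines lay on opposite sides of the control. It was 3.99-fold higher in KD2 (2.00 ± 0.18, adjusted p = 0.000775). Epas1, the hypoxia-inducible factor HIF-2α gene, read 6.37 and 6.15 in scrambled cells, 7.29 and 6.97 in KD1, and 8.49 and 8.21 in KD2 (1.22 ± 0.18, adjusted p = 0.00751). It was above scrambled cells in both lines. Among the 24 tested genes of the glycolysis and hypoxia list Epas1 was the 1 called higher and P4ha1 the 1 called lower. The KD2 arrays disagreed on this list, with medians of -0.41 and 0.30, and it gave 8 higher and 2 lower without replicate 1 but 1 higher and 7 lower without replicate 2. Hibch, a mitochondrial enzyme gene of valine breakdown, rose by 1.26 ± 0.18 (adjusted p = 0.00721). Usp46 read 5.57 and 5.09 in KD1 and 6.22 and 7.06 in KD2 (1.31 ± 0.31, adjusted p = 0.0478, and 0.0695 without KD2 replicate 2). Serpinb6c rose by 1.21 ± 0.27 (adjusted p = 0.0366).

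The BAF, polycomb and imprinted lists held 1, 1 and 2 calls, beside 2.7% of all tested genes. Of 27 tested BAF subunit genes, Brd9, a bromodomain subunit of the noncanonical complex, was lower at 7.01 and 7.54 in KD2 against 8.36 and 8.23 in KD1 (-1.02 ± 0.19, limma adjusted p = 0.0224). Smarcd1's paralogues Smarcd2 (0.26) and Smarcd3 (0.71) were not called. Of 24 polycomb genes Kdm2b, a CpG-island binding subunit, was higher (0.88 ± 0.21, adjusted p = 0.0495). Meg3, the maternally expressed noncoding RNA of the Dlk1-Dio3 region, read 6.64 and 6.96 in scrambled cells, 10.12 and 10.17 in KD1, and 8.80 and 8.46 in KD2. Both lines were above scrambled cells for Meg3, and KD2 was 2.86-fold below KD1 (-1.51 ± 0.20, adjusted p = 0.00543). The growth regulator gene Grb10 was the other call among 23 imprinted genes, at 7.47 and 7.59 in KD1 and 8.10 and 8.35 in KD2 (0.69 ± 0.16, adjusted p = 0.0415).

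No pluripotency gene was called between the lines. Pou5f1, the OCT4 gene, read 10.37 and 10.39 in scrambled cells, 10.55 and 10.54 in KD1, and 11.10 and 11.40 in KD2 (0.70 ± 0.25, limma adjusted p = 0.174). Of 30 tested genes 0 were called, at a list median of 0.21, with Klf5 (1.00) and Nr5a2 (0.94) the highest. Without KD2 replicate 1, 7 were higher and 1 lower, and without replicate 2, 1 was higher and 1 lower. Against scrambled cells, which both lines share as reference, 3 of the 30 were higher and 1 lower in KD1, and 7 were higher and 1 lower in KD2. Dppa3, a gene of naive cells and the germline, read 5.36 and 5.73 in scrambled cells, 4.33 and 4.38 in KD1, and 4.36 and 4.19 in KD2. Trophectoderm (11 tested), mesoderm (19), neural (13), interferon (10), endothelial and blood (10), DNA methylation (14) and 2-cell-like (2) lists also held 0 calls. In the trophectoderm list Ets2 had the highest value, at 6.05 and 5.49 in KD1 and 6.09 and 7.59 in KD2, so the nearest arrays of the lines were 0.04 log2 units apart.

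Of 3 tested Y-linked genes, Uty and Eif2s3y were lower than in scrambled cells in both lines and Sry was not called. Sry read 5.55 and 5.25 in scrambled cells, 5.35 and 5.48 in KD1, and 5.77 and 5.46 in KD2. Uty read 7.51 and 8.08 in scrambled cells, 2.96 and 3.35 in KD1, and 3.10 and 2.72 in KD2. Eif2s3y read 8.69 and 8.51, then 3.94 and 4.17, then 5.49 and 5.74. The KD2 arrays were thus 1.32 log2 units or more above KD1 for Eif2s3y but not for Uty. The Eif2s3y difference of 1.56 ± 0.41 did not pass the test (limma adjusted p = 0.0687). Its SE pools all groups, among them the 4 retinoic acid KD1 arrays, which split at 3.71, 4.02, 5.03 and 5.11. The ESC pairs were closer, with SDs of 0.165 in KD1 and 0.177 in KD2. The X-linked noncoding RNA Xist read 6.11 and 3.84 on the KD2 arrays, 4.09 and 3.86 in KD1, and 4.14 and 4.15 in scrambled cells.

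Whole gene families set the KD2 arrays apart from each other. Relative to replicate 2, replicate 1 was lower for 50 of 56 cytosolic ribosomal protein genes (median -0.64), 73 of 77 mitochondrial ribosomal protein genes (-0.97), 34 of 34 NADH dehydrogenase genes (-0.84), 17 of 17 ATP synthase genes (-1.08) and 41 of 41 proteasome genes (-1.05), beside a median of -0.13 over all tested genes. The same families differed by medians of 0.06 to 0.14 between the KD1 arrays. These families were chosen after their values were seen. In the mean of the KD2 arrays they largely cancelled, with medians from -0.21 to 0.12 against KD1 and 1 call, a ribosomal protein gene. Single genes with the widest gaps were Ephx2 (5.08 and 8.59), Rida (5.84 and 9.22) and Mrpl23 (6.38 and 9.17), which were lower on replicate 1, and Tbrg3 (9.29 and 6.68) and Hsd17b11 (10.51 and 8.04), which were higher. What underlies the difference between the KD2 arrays was not tested.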

How the data were processed

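The authors deposited 1 table of log2 probe set values for 12 arrays, and the submitters' processing notes name RMA. Of RMA, version and settings are not given in the sources used for this comparison. Of 35556 probe sets, 23410 had a platform annotation, 21789 with 1 gene symbol, 1621 with several, and 12146 were not listed. Probe sets with 1 symbol gave 19938 genes. For 999 genes with several, the one with the highest mean over all arrays was used. Entrez identifiers matched RefSeq for 21698 probe sets. A gene was tested when above percentile 40 on at least 2 arrays (12988 genes). The deposited log2 values were fitted without further scaling with limma 3.58.1 (R 4.3.3), group means over 5 groups, 7 residual and 4.58 prior degrees of freedom. Calls are two-sided. For a single gene, an exact permutation test of 2 against 2 arrays cannot go below 0.333. The number of arrays limits the precision. The fit was run on simulated data with the same spread in each group. It recovered 1 of 50 changes of 0.5 log2 units, 32 of 50 of 1, 39 of 50 of 1.5 and 48 of 50 of 2. There were 9 false calls. With equal spread in all groups, the simulation cannot show how the fit handles the wider scatter of the KD2 arrays. The members and gene lists were chosen with earlier results of these data known.

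Named genes are Smarcd1, Srgn, Cubn, Dab2 and Kcnma1, the 15 largest called differences in each direction without overlap, the 10 largest in each direction with a gap of at least 1 log2 unit, up to 6 called members of each list (or up to 3 with the largest values), and the 10 widest gaps between the KD2 arrays in each direction. Predicted genes, small RNAs and olfactory receptors are left out of these ranks, and some genes the rule gave are not printed. Chromosome 14 genes, further histone genes, list members not called and the families compared within KD2 or in the closing section were added after values were seen. The 33 gene lists are hand-written. Alternatives covered the filter, median centring, cyclic loess, array weights, an intensity trend, fewer arrays, a replicate block, the handling of several probe sets, chromosomes 8, 14, X and Y, thresholds and each array left out. Tables and plots used Python 3.11.15, pandas 2.3.3, numpy 2.4.6 and matplotlib 3.10.9.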

Additional observations from a re-analysis of the deposited data

Results flagged for a closer look

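In 17 named genes the KD1 and KD2 arrays lay on opposite sides of both scrambled ESC arrays without overlap, and the direct difference between the lines passed an adjusted p of 0.05 in limma. Both lines were set against the same 2 scrambled arrays.

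Lower in KD2 and higher in KD1 than in scrambled cells were Srgn (KD2 minus KD1 -3.42), Fmr1nb (-2.98), Dab2 (-2.58), Nxt2 (-1.67), Rhd (-1.64), Cnpy1 (-1.62), P4ha2 (-1.61), Jag1 (-1.14), Brd9 (-1.02), Mfng (-0.92) and Mov10l1 (-0.73). The reverse held for Myof (2.00), Nynrin (1.40), Hibch (1.26), Fermt2 (1.25), H2ac4 (1.20) and H4c4 (1.16). The distance of the nearer line from scrambled cells was small in several of them. KD1 minus scrambled was 0.11 for Jag1, 0.16 for Brd9 and -0.10 for Fermt2. It was 2.77 for Srgn, 2.05 for Dab2 and -1.26 for Myof, where KD2 differed from scrambled cells by -0.65, -0.53 and 0.74. Over all called genes this arrangement was found for 104 of 285 lower and 20 of 66 higher genes. Its share over all tested genes was not counted. Called genes were picked for a difference between the lines, which itself leaves room for the scrambled arrays between them. These counts are therefore descriptions.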

How the results depend on the processing

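With all arrays 351 genes were called, 66 higher and 285 lower in KD2. With cyclic loess 156 were called (48 higher, 108 lower). With array weights 0 were called in either direction, at 458 unadjusted p under 0.05, and with only the KD1 and KD2 ESC arrays 0 as well, at 782. With only the 6 ESC arrays 2 were called (0 higher, 2 lower), at 1126. An adjusted p under 0.01 left 36 (9 higher, 27 lower), a minimum of 1 log2 unit left 139 (31 higher, 108 lower), and leaving out chromosomes 8, 14, X and Y left 39 higher. Median centring gave 71 higher and 236 lower. Leaving out each array in turn, the count ran from 4 to 4550, with 2 to 2700 higher and 2 to 1850 lower. Both extremes came from arrays of the compared lines, 4 without KD1 replicate 2 and 4550 without KD2 replicate 1. Other filters on dim genes, an intensity trend and the mean of all probe sets gave between 312 and 367.

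Replicate numbers were not treated as pairs: deviations of same-numbered arrays correlated at 0.24 for scrambled with KD1, -0.05 for scrambled with KD2 and -0.18 for KD1 with KD2. With the number as a replicate block, 29 genes were called over all arrays (9 higher, 20 lower) and 0 in the ESC arrays alone (0 higher, 0 lower, 1000 at an unadjusted p under 0.05).

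Of 120 named genes followed over 26 settings, 23 changed direction in at least 1. The 100 named for other reasons than their gap between the KD2 arrays included 3, in 1 setting each: Smarcd1 was -0.61 without KD2 replicate 1 and 0.80 without replicate 2, Smad1 was 0.79 and -0.29, and Ccnd3 was 1.41 and -0.26, in the same order. The 20 genes with the widest gaps between the KD2 arrays all had opposite signs without replicates 1 and 2, as that choice of genes leads to, and 14 were called in opposite directions: Ephx2 2.39 and -1.12, Rida 1.47 and -1.91, Mrpl23 0.87 and -1.92, Gstp1 1.55 and -1.09, Trappc1 0.89 and -1.71, Ap1m2 1.23 and -1.37, Dynlrb1 1.12 and -1.44, Snx3 1.30 and -1.20, Cat 1.68 and -0.77, Pdcd4 0.85 and -1.59, Tbrg3 -1.70 and 0.91, Eid3 -1.46 and 1.14, Hsd17b11 -0.81 and 1.66, Unc13a -0.30 and 2.04, H1f2 -1.45 and 0.88, Xist -0.13 and 2.13, H3c15 -1.64 and 0.60, Tmem253 -1.03 and 1.17, Slc15a1 -0.91 and 1.24, Zfp202 -0.20 and 1.95. Without KD1 replicate 2 Gstp1 (-0.01), Snx3 (-0.19), Eid3 (0.25), Tmem253 (-0.06) and Slc15a1 (-0.20) changed sign too. The cause was not tested. Calls were lost in 514 of these gene and setting pairs, with 53 genes called at the start. All 53 lost the call with array weights and with the 4 arrays alone. The estimated array weights were 0.137 for each KD2 array and 1.7 for each KD1 array.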

Other observations

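Genes of protein entry into the secretory pathway were low in KD2. The families below were taken whole by gene symbol, after their values were seen, and no test was run on them. All 11 tested Alg genes, which build the N-glycan precursor, had values below 0, with a median of -0.81, and Alg1 (-1.15), Alg8 (-1.14), Alg3 (-0.96) and Alg6 (-0.92) were called. All 10 oligosaccharyltransferase genes were below 0 (median -0.68), with Tusc3 (-1.16) and Rpn1 (-0.88) called. In GPI anchor synthesis 21 of 24 genes were below 0 (median -0.52), and 6 were called, led by Pigk (-1.13). Of 9 genes of the ER membrane protein complex, which inserts membrane proteins, Emc3 (-1.04), Emc4 (-0.92) and Emc7 (-0.89) were lower and Emc9 (0.73), a chromosome 14 gene, was higher. The Sec61 translocon and its associated receptor had 8 of 9 genes below 0 (median -0.73), with Sec61a2 (-0.89) called. All 5 signal peptidase genes (median -0.62) and 8 protein disulfide isomerase genes (-0.70) were below 0. Cargo receptors of the early secretory pathway had a median of -0.58, with 4 of 16 called, and cathepsins, proteases of the lysosome, one of -0.67, with 2 of 10 called. The called cargo receptors include Tmed10, whose probe set has neighbours from another chromosome, as described with the probe set labelled Kcnma1. The vacuolar ATPase had a median of -0.19, with 3 of 19 called.

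Coat proteins of the vesicles did not show this. The COPII coat had a median of 0.07 with 1 of 11 called, Sar1b (-0.86), and the COPI coat a median of -0.06 with 0 of 9 called. On both coats the KD2 arrays disagreed, at -0.36 and 0.49 for COPII and -0.56 and 0.57 for COPI. For the Alg genes both KD2 arrays were low relative to KD1, at -0.67 and -1.02, beside -0.12 and 0.08 over all tested genes. Replicate 1 was less low than replicate 2 for Sec61 and its receptor (-0.27 and -1.06), disulfide isomerases (-0.27 and -1.02) and cargo receptors (-0.3 and -0.94). The ER membrane protein complex gave -0.69 and -0.56. On the vacuolar ATPase the arrays disagreed in sign, at -0.48 and 0.06. The Alg genes of KD1 differed from scrambled cells by a median of 0.12 and those of KD2 by -0.73. Over 12 such families 28 of 141 genes were lower and 1 higher, beside 2.19% lower and 0.508% higher over all tested genes. After cyclic loess the lower calls over all tested genes fell from 285 to 108. How many of these family members kept their call there was not counted.

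The chromosome 14 shift of KD2 had a counterpart among the retinoic acid arrays labelled KD1. Relative to the mean of the retinoic acid scrambled arrays, the median over 451 chromosome 14 genes was 0.04, 0.02, 0.32 and 0.34 on KD1 replicates 1 to 4. The probe set labelled Kcnma1, high in ESCs on the KD2 arrays alone, read 3.05, 2.84, 6.46 and 5.94 on these arrays. Eif2s3y read 3.71, 4.02, 5.03 and 5.11, where the ESC arrays read 3.94 and 4.17 in KD1 and 5.49 and 5.74 in KD2. Fmr1nb read 7.99, 7.88, 6.07 and 5.91. Further genes that separated the lines in ESCs differed in the same way between these arrays: Cubn read 8.77, 9.47, 7.80 and 7.60, Cldn6 11.13, 11.16, 10.23 and 10.60, Rnf17 6.35, 6.20, 7.12 and 7.19, and Nynrin 7.23, 7.43, 8.10 and 7.98. Others did not: Myof read 9.17, 9.08, 9.04 and 9.13, and Usp26 3.08, 2.96, 2.73 and 2.98. These named genes were picked after their values were seen, and Rnf17 and Nynrin lie on chromosome 14. As a set, the 50 genes at least 1 log2 unit lower in KD2 ESCs showed no such split. Relative to the same scrambled mean, their medians were 0.27, 0.26, 0.28 and 0.28 on replicates 1 to 4. For the 11 genes at least 1 log2 unit higher, without the probe set labelled Kcnma1, they were -0.22, -0.075, -0.23 and -0.11. The labels give all 4 arrays as KD1, and the source of this split was not tested.

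A further limma fit took all probe sets together, whether or not they had a gene symbol. Of 8223 tested without a symbol or with several, 29 were higher and 61 lower in KD2. Of 15481 tested with 1 symbol, 21 were higher and 154 lower in the same fit. These counts come from another set of tests than the main fit and are not comparable with its counts.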
